A study of Mus musculus with 32 samples.

Results

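Spheres of TH-MYCN cells that had been passaged 5 times were compared with primary spheres of the same genotype. The members were all samples whose titles name them as passage or primary spheres, which gave 16 of the 32 arrays of the series. Both groups came from 3-week-old mice that were hemizygous for TH-MYCN on the 129+Ter/SvJcl background. In this model a human MYCN transgene is driven by a tyrosine hydroxylase promoter, so it is active in catecholamine-producing cells, and the mice develop neuroblastoma. The primary group held 8 cultures grown for 8 days, with 1 array each. The passaged group held 4 cultures with 2 arrays each, which were averaged, so n = 4. The other arrays of the series hold superior mesenteric ganglia, sympathetic ganglia of the abdomen, from 8 TH-MYCN and 8 wild-type mice. They enter only where a tissue level is given.

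Neuroblastoma arises from sympathoadrenal precursors of the neural crest. Hand2, Gata3, Insm1 and Isl1 are transcription factors of this lineage, and Th, Ddc and Dbh make noradrenaline. Primary cell clusters from a tumour or ganglion can carry along glia, fibroblasts and vessel cells, while repeated passage keeps the cells that divide under the culture conditions. Levels below are log2 signal relative to the 75th percentile of the array, so 0 is the level of a fairly bright gene, and a difference of 1 is a 2-fold change. A difference was called when its limma adjusted p was under 0.05. It is always passaged minus primary.

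The arrays of the 2 groups were not equally bright. Labelling started from 40 or 200 ng of total RNA, per the labels' protocols. These protocols do not tie either amount to single samples, so the part of RNA input in brightness was not tested. On primary arrays 57.0% to 59.7% of spots were well above background, and on passaged arrays 49.0% to 53.9% were. The lowest level well above background lay between -5.56 and -5.21 on primary arrays and between -5.05 and -4.10 on passaged arrays. Levels under about -5 therefore only say that a gene was not well above background, and the falls of such genes are given as lower bounds where no passaged array measured them. Primary cultures 1 to 4 and the first array of each passaged culture shared 1 slide (slide 3), and primary cultures 5 to 8 and the second arrays shared another (slide 4). Every comparison could thus be repeated within each slide, with other primary cultures but the same passaged cultures. The primary cultures of the 2 slides stood apart. Their arrays correlated at 0.990 to 0.996 across genes within a slide and at 0.975 to 0.987 between slides, against 0.994 to 0.996 for the 2 arrays of a passaged culture. Values are given below against the primary cultures of each slide where they differ. Xist was high and Y-linked genes were low in 4 of 8 primary cultures and in 1 of 4 passaged cultures (culture 2), so the sexes were not balanced.

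Of 14150 genes tested, 695 (4.91%) were higher and 932 (6.59%) were lower after 5 passages. With the filter on background, 35 genes (0.247%) were higher and 334 (2.36%) were lower by at least 2-fold. This split depends on the processing: it was 616 higher and 407 lower without the filter, and 20 and 82 with normexp background correction. The filter could be met by 4 primary cultures alone, but by passaged cultures alone only if all 4 measured the gene on both arrays. Of the 334 genes, 101 were above background on no passaged array. The median gene differed by 0.01. Of the called genes, 105 were higher and 240 were lower in the same direction within both slides as well, where 7.27% (slide 3) and 6.80% (slide 4) of genes tested were called. Both slides hold arrays of the same passaged cultures, so these fits repeat the primary side only. They are also parts of the full comparison. The values of the groups did not overlap for 9.09% of genes, with 4.45% higher and 4.64% lower after passaging. The counts rested on passaged cultures 2 and 4 more than on the others: 247 genes were higher and 560 lower without culture 2, and 257 and 522 without culture 4.

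The core sympathetic programme was still present. Th, the enzyme of the first step from tyrosine to catecholamines, had a primary median of 7.79 and values of 7.99, 8.05, 8.36 and 7.88 in passaged cultures 1 to 4 (difference 0.26, SE 0.10, limma adjusted p = 0.122). Isl1 (0.13, limma adjusted p = 0.196) and Stmn2, a microtubule regulator of neurons (-0.14, limma adjusted p = 0.281), likewise missed the threshold. Isl1 and Stmn2 were named after their values were seen. All 14 markers of sympathetic neuroblasts were well above background on all arrays of both groups. So were 13282 of all 14150 tested genes on all primary arrays and 12103 on all passaged arrays. Detection alone thus does not set these markers apart. Their mean level ran from 4.466 to 4.867 in primary and from 4.638 to 5.025 in passaged cultures. All tested genes averaged 0.5096 to 0.631 and 0.4899 to 0.5185. By level, these markers thus lay above the average gene in every culture. So did lists that name no cell type, such as mitochondrial respiration (5.547 to 5.719 in primary and 5.622 to 5.718 in passaged cultures). A high mean alone does not name the cells.

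Around this core, single factors shifted in both directions. Of the 14 neuroblast markers 5 were higher (35.7%, beside 4.91% of all genes) and 2 were lower (14.3%, beside 6.59%). Their median difference was 0.19, beside 0.01 for all genes. Hand2 was 4.50 to 4.87 in primary cultures and 5.23, 5.18, 4.94 and 5.19 in passaged ones, and every passaged value lay above every primary value (0.43, SE 0.08, limma adjusted p = 0.00685). Insm1, a zinc finger factor of endocrine and sympathoadrenal precursors, averaged 4.41 ± 0.18 (SD, n = 8) before and 5.37 ± 0.32 (SD, n = 4) after passaging, a rise of 0.95 (SE 0.14, limma adjusted p = 0.00191). Gata2 spread widely. Its primary values ran from -0.32 to 1.17 and its passaged values were 1.46, 3.82, 0.88 and 2.52, so that culture 3 lay within the primary range (1.82, SE 0.45, limma adjusted p = 0.0245). Its paralogue Gata3 rose by 0.77 and is named after its value was seen. Phox2a, a homeobox factor, and Hand1, the paralogue of Hand2, went the other way. Phox2a had primary values of 4.72 to 5.89 and passaged values of 4.91, 3.69, 4.08 and 4.13 (-1.10, SE 0.27, limma adjusted p = 0.0242), and only culture 1 overlapped the primary range. Without passaged culture 2 or without culture 4, Gata2 and Phox2a missed the threshold, with limma adjusted p up to 0.0815 and 0.0837. Hand1 had primary values of 0.92 to 1.77 and passaged values of 0.33, 0.52, -1.26 and -1.97, lowest in cultures 3 and 4 (-1.97, SE 0.41, limma adjusted p = 0.0113).

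Genes of catecholamine handling followed no single direction either. Of 15 tested, 3 were higher (20%, beside 4.91% of all genes) and 1 was lower (6.67%, beside 6.59%), with a median of 0.11. Dbh, which turns dopamine into noradrenaline, ran from 5.76 to 6.34 with a median of 6.05 in primary cultures and was 6.59, 7.01, 6.63 and 6.56 after passaging, with no overlap (0.66, SE 0.12, limma adjusted p = 0.00614). Slc18a1, the vesicular monoamine transporter of chromaffin cells, rose by 1.39 (SE 0.30, limma adjusted p = 0.0135), and its passaged values were 1.69, 3.45, 1.78 and 2.20. Slc18a1 missed the threshold within slide 3 and within slide 4. Maob, a mitochondrial enzyme that breaks down amines, rose by 1.91 (SE 0.28, limma adjusted p = 0.00199), and its values of 0.08, 1.97, 0.76 and 1.21 lay above the highest primary value of -0.53. Among 17 tested genes of granins and neuropeptides 1 was higher (5.88%) and 3 were lower (17.6%). Chga, a core protein of secretory granules, rose by 0.43 (SE 0.11, limma adjusted p = 0.0302), but missed the threshold without primary culture 4 or passaged culture 2 or 3 (up to 0.102). Adcyap1, the precursor of the neuropeptide PACAP, had primary values of -1.55 to -0.39 and passaged values of -2.62, -3.65, -3.04 and -2.37 (-1.89, SE 0.25, limma adjusted p = 0.00131). Pcsk2, a convertase that cuts neuropeptide precursors, was also lower (-0.85, SE 0.14, limma adjusted p = 0.00423). Penk, the enkephalin precursor, was well above background on 6 primary arrays and on no passaged array.

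Of 24 mature neuron genes 0 were higher and 3 were lower (12.5%, beside 6.59% of all genes) in limma's test, with 13 positive and 11 negative differences. Mapt, the microtubule protein tau, ran from 4.26 to 4.85 in primary cultures and was 3.95, 3.63, 3.78 and 3.91 after passaging (-0.72, SE 0.10, limma adjusted p = 0.00199). Rbfox3, the neuronal splicing factor known as NeuN, was lower by a like amount (-0.88, SE 0.17, limma adjusted p = 0.00842), and Chrnb4, a ganglionic acetylcholine receptor subunit, missed the threshold in 9 of the 12 fits without 1 culture (-0.84, SE 0.24, limma adjusted p = 0.0448). 

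**Figure D1:**
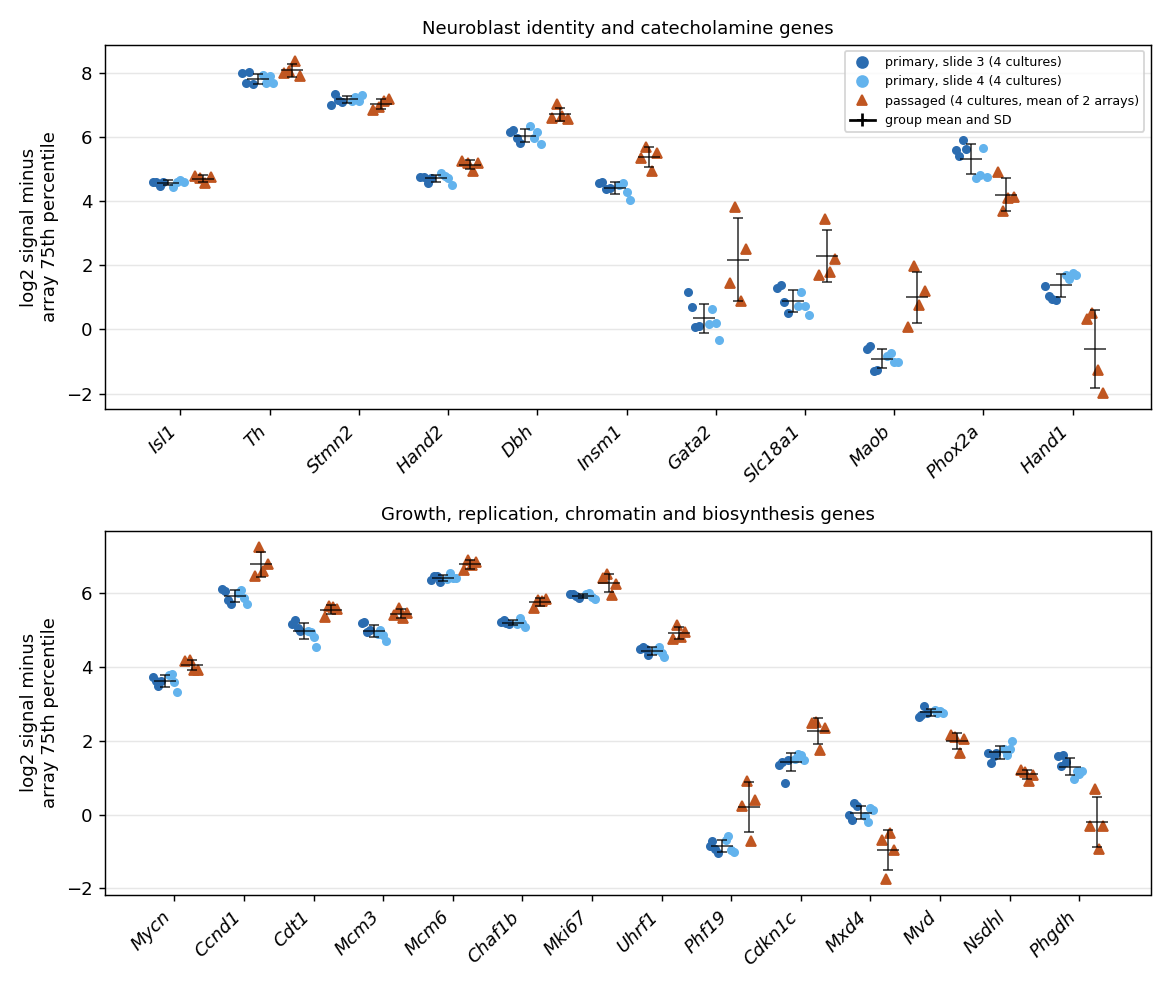
Levels (log2 signal minus the array's 75th percentile) of lineage and catecholamine genes (top) and of growth, replication, chromatin and biosynthesis genes (bottom) in 8 primary cultures (circles, by slide) and 4 passaged cultures (triangles); bars give the group mean and SD. Isl1, Th and Stmn2 overlap between groups, Dbh, Insm1, Cdt1 and Mcm3 lie higher in all 4 passaged cultures, and Mvd and Nsdhl lie lower in all 4.

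A minority of the cell cycle genes tested were higher, by small amounts. All 21 genes of DNA replication were tested. Of these, 9 were higher (42.9%, beside 4.91% of all genes) and 0 lower (beside 6.59%) in limma's test. All 21 differences were positive, with a median of 0.29, which was 0.26 on slide 3 and 0.32 on slide 4. Cdt1, a loader of the replicative helicase, had a primary median of 4.98, with values up to 5.27, and was 5.36, 5.64, 5.63 and 5.58 after passaging (0.59, SE 0.12, limma adjusted p = 0.0100). Mcm3, a helicase subunit, moved from 4.98 ± 0.17 (SD, n = 8) to 5.44 ± 0.12 (SD, n = 4) without overlap (0.47, SE 0.09, limma adjusted p = 0.0101). Mcm6 rose by 0.37 (SE 0.07, limma adjusted p = 0.00552) and Pole, the catalytic subunit of DNA polymerase epsilon, by 0.41 (SE 0.09, limma adjusted p = 0.0135). Of 20 genes of mitosis 5 were higher (25%) and 0 lower in limma's test, with a median of 0.23 and 19 positive differences. Within slide 3 alone 0 were called higher. Mki67, a protein of dividing cells, was 5.83 to 5.99 in primary cultures and 6.40, 6.51, 5.95 and 6.24 in passaged ones, so culture 3 did not exceed the primary range (0.35, SE 0.09, limma adjusted p = 0.0265). Plk1 (0.34), Kif20a (0.33) and Cdc20 (0.31), a kinase, a motor and an activator of mitotic exit, were the other named members. These calls were not stable to leaving out 1 culture. Plk1 was called in 3, Cdc20 in 7, Mki67 in 8 and Kif20a in 10 of 12 such fits, with limma adjusted p up to 0.137, 0.113, 0.0894 and 0.0769. Each missed the threshold without passaged culture 1 and without culture 2. Mki67 also did without primary culture 4 or passaged culture 4, Cdc20 without primary culture 3, 4 or 7, and Plk1 without any primary culture but 6, and Pole did so without culture 2 or 4 (up to 0.0521).

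The G1 list, of cyclins, kinases and inhibitors that govern entry into S phase, had 5 higher and 1 lower of 14 tested. These are 35.7% and 7.14%, beside 4.91% and 6.59% of all genes. Ccnd1, the D-type cyclin, ran from 5.69 to 6.10 in primary cultures and was 6.45, 7.24, 6.61 and 6.79 after passaging (0.86, SE 0.14, limma adjusted p = 0.00311). Of the inhibitors, Cdkn1c rose by 0.85 (SE 0.16, limma adjusted p = 0.00734) and Cdkn2c by 0.73 (SE 0.15, limma adjusted p = 0.0123), whereas Cdkn2b fell (-2.88, SE 0.80, limma adjusted p = 0.0390) in a way that differed between cultures, as described further on. Mouse Mycn was 3.32 to 3.80 in primary cultures and 4.16, 4.20, 3.92 and 3.92 in passaged ones, all above the primary range (0.43, SE 0.10, limma adjusted p = 0.0147). Without passaged culture 2 its adjusted p was 0.0555. The array probe is annotated to the mouse gene, and whether it also reads the human transgene was not tested. Myc was near background in both groups, above it on 5 primary and 4 passaged arrays. Of 10 genes of the MYC family and its partners 2 were higher (20%) and 2 lower (20%). Mxd4, which competes with MYC proteins for their partner Max, ran from -0.19 to 0.32 in primary cultures and was -0.68, -1.74, -0.49 and -0.95 in passaged ones (-1.02, SE 0.19, limma adjusted p = 0.00721). Mxd3, a family member expressed in S phase, rose by 0.43 (SE 0.11, limma adjusted p = 0.0241), but missed the threshold without passaged culture 2 or 4 (up to 0.0818). Ribosome biogenesis and mitochondrial respiration, with 18 genes tested each, had 0 genes called by limma, and their medians were 0.04 and 0.02. At an unadjusted p under 0.05 there were 3 ribosome biogenesis genes and 0 respiration genes, with limma the only test run on them.

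Chromatin genes of polycomb complex PRC2 and of DNA methylation had 5 higher and 1 lower of 18 (median 0.15). These are 27.8% and 5.56%, beside 4.91% and 6.59% of all genes. Phf19, an accessory subunit that brings PRC2 to chromatin, was -1.03 to -0.58 in primary cultures and 0.24, 0.90, -0.71 and 0.38 in passaged ones, with culture 3 inside the primary range (1.04, SE 0.22, limma adjusted p = 0.0130). Phf19 missed the threshold within slide 3 and within slide 4. Uhrf1 guides the maintenance methyltransferase to newly replicated strands and was higher by 0.48 (SE 0.08, limma adjusted p = 0.00386), and Aebp2, another PRC2 subunit, by 0.35 (SE 0.10, limma adjusted p = 0.0415), the latter in 3 of 12 fits without 1 culture. Ezh1, the PRC2 methyltransferase typical of resting cells, was 1.15 to 1.60 in primary cultures and 0.88, 0.64, 0.84 and 0.90 after passaging, without overlap (-0.49, SE 0.09, limma adjusted p = 0.00628).

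Cholesterol synthesis was the metabolic list with the most calls. Of 17 genes 8 were lower (47.1%, beside 6.59% of all genes) and 0 higher in limma's test. Their median was -0.27, which was -0.39 on slide 3 and -0.20 on slide 4. Mvd, which makes isopentenyl diphosphate, ran from 2.64 to 2.94 in primary cultures and was 2.14, 2.11, 1.66 and 2.06 in passaged ones, with no overlap (-0.78, SE 0.09, limma adjusted p = 0.000601). Nsdhl (-0.60, SE 0.10), Lss (-0.47, SE 0.08) and Msmo1 (-0.44, SE 0.10), later enzymes of the same pathway, were lower as well. Scd1, which desaturates fatty acids, was the 1 called gene of 13 (7.69%) in the fatty acid list (-0.91, SE 0.21, limma adjusted p = 0.0194). Without passaged culture 4, Scd1 and Msmo1 missed the threshold, with limma adjusted p of 0.0594 and 0.0523. Phgdh, the first enzyme of serine synthesis, had primary values of 0.96 to 1.61 and passaged values of -0.31, 0.70, -0.92 and -0.30 (-1.50, SE 0.24, limma adjusted p = 0.00291). In the same list of amino acid stress genes Nupr1 (-1.26, SE 0.25) and Chac1 (-0.43, SE 0.08) were lower, 3 of 17 (17.6%) in all. Nupr1 missed the threshold with normexp background correction. Of 12 genes of the interferon response and MHC class I 4 were lower (33.3%), among them the antigen-presenting molecules H2-K1 (-0.94, SE 0.19, limma adjusted p = 0.00895) and H2-D1 (-0.90, SE 0.19, limma adjusted p = 0.0111). H2-K1 missed the threshold within slide 4, and H2-D1 within slide 3 and within slide 4.

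Of 17 genes of the neurotrophin, GDNF and ALK systems, ligands and receptors of nerve growth and survival, 1 was higher (5.88%, beside 4.91% of all genes) and 3 were lower (17.6%, beside 6.59%). Ngfr, the low-affinity neurotrophin receptor that glia and neurons both carry, was lower (-1.52, SE 0.37, limma adjusted p = 0.0236), with a larger difference against slide 3 (-2.23) than against slide 4 (-0.82). Without passaged culture 2 or 4 its adjusted p was up to 0.0818. Ntf3, a neurotrophin, ran from 0.43 to 1.40 in primary cultures and was 0.25, -0.96, 0.04 and 0.22 in passaged ones (-1.13, SE 0.24, limma adjusted p = 0.0115). Alk (0.14, SE 0.15, limma adjusted p = 0.574) and Ret (-0.27, SE 0.17, limma adjusted p = 0.319), receptor kinases mutated or active in neuroblastoma, missed the threshold. Igf2, an imprinted growth factor, was above background on all 8 primary and on no passaged array, which makes it at least 2.71-fold lower (limma adjusted p = 0.00827). Igf2 missed the threshold with normexp background correction. Dlk1, an imprinted surface protein of chromaffin cells, fell from 6.94 ± 0.36 (SD, n = 8) to 5.59 ± 0.86 (SD, n = 4), with culture 3 at 6.79 inside the primary range (-1.35, SE 0.31, limma adjusted p = 0.0189, up to 0.0675 without passaged culture 2 or 4). Itga6, the laminin receptor subunit, ran from 4.57 to 5.04 and was 4.03, 2.91, 2.28 and 3.68 after passaging (-1.47, SE 0.26, limma adjusted p = 0.00485), while the laminin chain Lama1 rose by 1.20 (SE 0.18, limma adjusted p = 0.00211).

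**Figure D2:**
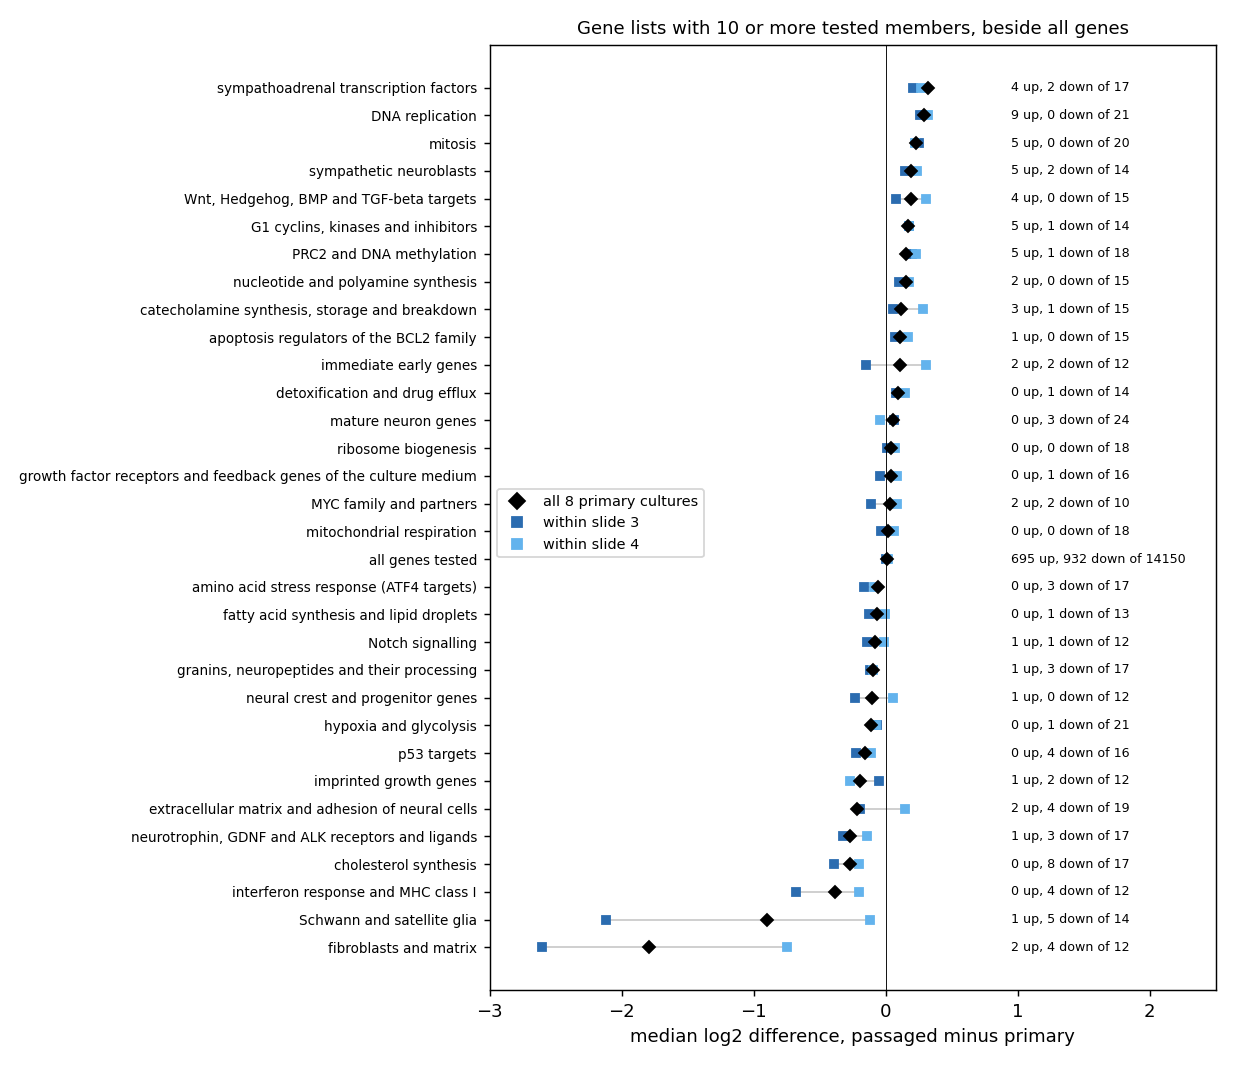
Median log2 difference, passaged minus primary, of each gene list with at least 10 tested members, against all 8 primary cultures (diamonds) and within each slide (squares), with the number of members called up and down. The glia and fibroblast lists have the lowest medians and the widest gap between slides. Sympathoadrenal transcription factors, DNA replication and mitosis lie at 0.32, 0.29 and 0.23, and all genes at 0.01.

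The largest rises called without any 1 culture, in genes above background on all passaged arrays, ran from 0.98 (Ankrd34b) to 2.22 (Cidea). Their size cannot be set against that of the falls, since the filter on background does not treat the groups alike. Of the genes tested, 0 were above background on no primary array and 422 on no passaged array. Cidea, a lipid droplet protein, was -0.83 to 0.22 in primary cultures with a median of -0.50, and 1.84, 2.26, 0.58 and 2.59 after passaging (SE 0.32, limma adjusted p = 0.00191). Every passaged culture exceeded every primary one. Its list of adipocyte markers had 3 tested genes, of which Cidea alone was called, and 6 further markers did not pass the filter on background. Kitl, the ligand of the receptor kinase Kit, was -3.78 to -3.07 and then -1.93, -2.16, -0.46 and -2.54, highest in culture 3 (1.74, SE 0.30, limma adjusted p = 0.00485). Kit itself rose by 0.43 (SE 0.07, limma adjusted p = 0.00432). Rbm24, an RNA-binding protein, rose by 1.63 (SE 0.26, limma adjusted p = 0.00311) and Dsc2, a desmosomal cadherin, by 1.74 (SE 0.27, limma adjusted p = 0.00273). Igsf21, a synaptic adhesion protein, moved from 3.01 to 3.55 in primary cultures to 4.39, 4.39, 5.16 and 4.56 (1.30, SE 0.15, limma adjusted p = 0.000448). Diaph2 (1.22), Tmem178 (1.08), Btbd3 (1.06) and Aim2 (0.98) were also among them, as were Maob, Slc18a1, Lama1 and Phf19.

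The falls that the rule names often ended below background, and they were of more than 1 kind. In the first kind the primary cultures of both slides had levels near each other. Dsel, an epimerase-like enzyme of dermatan sulphate chains, had the smallest adjusted p of all genes. It ran from -1.63 to -0.77 with a median of -1.15 in primary cultures and was -6.11, -6.83, -6.25 and -6.50 in passaged ones, above background on no passaged array (at least 11.1-fold lower, limma adjusted p = 1.03e-08). Its primary cultures averaged -0.98 on slide 3 and -1.28 on slide 4. Nap1l3, an X-linked histone chaperone of neurons, ran from -2.18 to -0.92 and was -5.32, -6.87, -6.30 and -6.53 after passaging, and only 1 of 8 passaged arrays measured it above background (limma adjusted p = 8.71e-06), so the size of its fall is not known. Tcfl5, a helix-loop-helix factor named after its values were seen, was dim in primary cultures, at -4.43 to -3.82, and above background on no passaged array, so its bound is only 1.42-fold (limma adjusted p = 3.62e-07). Ly6h, a brain-enriched surface protein, ran from 1.38 to 2.48 and was -0.18, -3.33, -1.23 and -1.80 on arrays that all measured it (-3.65, SE 0.44, limma adjusted p = 0.000740). Gpm6a, a neuronal membrane protein, was -7.07, -6.50 and -6.50 in cultures 2 to 4 and -2.15 in culture 1, against primary values of -1.11 to 0.28. Ldoc1 and S100a10 were uneven between cultures, Ldoc1 at -6.64, -2.69, -1.25 and -6.52 and S100a10 at -6.79, -1.34, -3.08 and -1.15, where the values under -6 were not above background. Car10 and Hmx3 were above background in culture 3 only.

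The promoters of 3 falls and 3 rises are shown, chosen by the smallest adjusted p among called genes with an annotated promoter window. Genes of a chromosome kept out of this choice were not considered. A small adjusted p did not make a call hold in every setting. Tcfl5 missed the threshold with normexp background correction, and Chaf1b with all 4 groups in 1 fit. Igsf21 differed among passaged cultures by the F-test (adjusted p = 0.000356), and the levels of Dsel and Tcfl5 in passaged cultures were not measured above background. Chaf1b, a histone chaperone of replication, and Bard1, a partner of Brca1 in DNA repair, are named by that choice, after their values were seen. Chaf1b was 5.08 to 5.32 in primary cultures and 5.61, 5.81, 5.79 and 5.84 in passaged ones (0.57, SE 0.07, limma adjusted p = 0.000432), and Bard1 was 2.19 to 2.54 and then 3.04, 3.21, 2.91 and 3.03 (0.67, SE 0.08, limma adjusted p = 0.000652). The 250 bases before the annotated start of each gene are from RefSeq, build GRCm38.p6, in the gene's own 5′ to 3′ direction, with each CG in capitals. Dsel lies at chr1:111864919-111865168 (minus strand), Tcfl5 at chr2:180642692-180642941 (minus), Nap1l3 at chrX:122397386-122397635 (minus), Chaf1b at chr16:93883651-93883900 (plus), Igsf21 at chr4:140246812-140247061 (minus) and Bard1 at chr1:71102973-71103222 (minus).
Dsel: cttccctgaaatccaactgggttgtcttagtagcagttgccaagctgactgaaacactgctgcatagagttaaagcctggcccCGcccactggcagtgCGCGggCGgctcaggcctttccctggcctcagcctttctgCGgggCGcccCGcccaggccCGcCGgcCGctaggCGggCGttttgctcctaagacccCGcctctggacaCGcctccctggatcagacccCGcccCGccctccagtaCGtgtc
Tcfl5: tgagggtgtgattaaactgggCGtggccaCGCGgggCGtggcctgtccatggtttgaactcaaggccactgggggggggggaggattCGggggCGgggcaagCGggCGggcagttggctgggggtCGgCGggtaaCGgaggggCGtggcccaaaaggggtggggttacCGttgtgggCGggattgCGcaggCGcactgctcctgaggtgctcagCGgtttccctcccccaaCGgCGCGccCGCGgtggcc
Nap1l3: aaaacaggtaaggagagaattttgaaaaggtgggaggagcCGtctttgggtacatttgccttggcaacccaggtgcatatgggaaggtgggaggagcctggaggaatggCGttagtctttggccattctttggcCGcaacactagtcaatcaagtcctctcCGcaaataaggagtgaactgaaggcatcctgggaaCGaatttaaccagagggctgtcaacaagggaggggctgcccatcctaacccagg
Chaf1b: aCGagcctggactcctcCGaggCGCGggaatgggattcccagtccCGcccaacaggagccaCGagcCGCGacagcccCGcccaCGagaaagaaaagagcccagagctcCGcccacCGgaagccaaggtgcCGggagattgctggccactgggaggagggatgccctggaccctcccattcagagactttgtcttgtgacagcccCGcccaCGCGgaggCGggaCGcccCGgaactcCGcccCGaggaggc
Igsf21: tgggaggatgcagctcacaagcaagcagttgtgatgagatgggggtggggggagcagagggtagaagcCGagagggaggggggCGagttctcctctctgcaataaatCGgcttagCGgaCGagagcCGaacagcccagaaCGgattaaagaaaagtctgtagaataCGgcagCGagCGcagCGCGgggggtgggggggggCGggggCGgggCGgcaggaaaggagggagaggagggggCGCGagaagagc
Bard1: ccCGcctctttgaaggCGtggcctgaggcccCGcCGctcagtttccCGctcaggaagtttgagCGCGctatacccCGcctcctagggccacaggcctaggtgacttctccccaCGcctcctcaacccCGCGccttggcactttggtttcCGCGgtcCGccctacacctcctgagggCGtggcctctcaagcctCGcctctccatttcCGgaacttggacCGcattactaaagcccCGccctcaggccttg

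These windows hold 17, 22 and 5 CG for Dsel, Tcfl5 and Nap1l3, and 21, 17 and 19 for Chaf1b, Igsf21 and Bard1. Over windows of 300 bases that also take in the first 50 bases of the transcript, the first window listed for a gene, the median was 20 CG for the 11268 tested genes with a window, 24 for the 560 higher genes, 16 for the 725 lower genes and 13 for the 250 genes lower by at least 2-fold. The E-box CACGTG, a site that MYC proteins can bind, stood in 9.90% of windows of tested genes, 10.7% of those of higher genes and 8.55% of those of lower genes. The letters TTTCCCGC, a form of the E2F site, on either strand, stood in 1.95%, 4.82% and 0.690% in the same order, and TTTGGCGC, another form, in 0.896%, 2.14% and 0.552%. Both strands were searched for each motif, and no motif contains another. Of the windows printed, Bard1 holds TTTCCCGC and none of the 6 holds CACGTG. A match is a description of letters and was not tested against binding.

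In the other kind the primary cultures of slide 3 were far above those of slide 4. Fabp7, a fatty acid-binding protein of glial precursors, was 1.83 on average in primary cultures 1 to 4 and -1.51 in cultures 5 to 8, and -6.80, -6.74, -6.14 and -6.38 in passaged cultures, above background on no passaged array (at least 27.1-fold lower, limma adjusted p = 0.00108). Sparc, a secreted matrix protein, was 5.37 and 0.57 on average on slides 3 and 4 in the primary group and -3.58, -2.22, -2.0 and -3.44 in passaged cultures (-5.78, SE 1.24, limma adjusted p = 0.0134). Apod, a lipid carrier of glia and fibroblasts, was 2.57 and -1.08 on those slides and -3.77, -3.57, -3.42 and -3.63 in passaged cultures (-4.34, SE 0.93, limma adjusted p = 0.0133). Serpinh1, a collagen chaperone, was at least 6.64-fold lower and Col4a1, a basement membrane collagen, at least 4.89-fold lower, with no passaged array above background. Selenop, a secreted selenoprotein, averaged 0.41 and -3.64 on slides 3 and 4 in the primary group, and only 1 of 8 passaged arrays measured it above background (limma adjusted p = 0.0152). Kif21b, a kinesin, was at least 3.24-fold lower. Serpinh1, Col4a1, Selenop and Kif21b missed the threshold with normexp background correction. Of the genes of this kind, Apod was above background on all passaged arrays and Sparc on 7 of 8, and their values lay below all 8 primary values.

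Markers of glia, of fibroblasts and of pericytes included genes that fell. For 14 tested genes of Schwann and satellite glia the mean level was -0.58 to 0.23 in primary cultures of slide 3, -2.26 to -2.03 in those of slide 4 and -2.53 to -2.27 in passaged cultures. Of the 14, 5 were lower (35.7%, beside 6.59% of all genes) and 1 was higher (7.14%, beside 4.91%). Their median was -2.12 on slide 3 and -0.11 on slide 4, and 8 of 14 differences changed between slides by the test. Sox10, the defining regulator of glia, was -0.12 on average in slide 3, -2.14 in slide 4 and -2.39, -2.32, -2.21 and -2.27 in passaged cultures (limma adjusted p = 0.174). It stayed above background on all arrays. S100b was above background on 4 of 8 primary arrays and on 1 of 8 passaged arrays. The fibroblast and matrix list, with 12 tested genes, 4 lower (33.3%) and 2 higher (16.7%), had means of -0.36 to 0.55, -1.94 to -2.38 and -2.69 to -2.88 in the same order of groups. Col1a2, a chain of type I collagen, was 2.27 and -1.02 on average on slides 3 and 4 in the primary group and -0.75, -2.61, -1.65 and -1.93 in passaged cultures (limma adjusted p = 0.0963). Sox10, S100b and Col1a2 were named after their values were seen. Of 5 tested markers of smooth muscle and pericytes 3 were lower (60%): Rgs5 (above background on all 8 primary arrays and 1 of 8 passaged arrays, limma adjusted p = 0.000105), Pdgfrb (at least 2.88-fold) and Cspg4 (at least 2.49-fold). Pdgfrb and Cspg4 missed the threshold with normexp background correction. In bulk RNA, fewer cells of a type and less RNA per cell cannot be told apart, and the part of these markers in the other falls was not tested.

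Markers of blood and vessel cells were mostly low. Of 7 tested endothelial genes 0 were called by limma, 3 had an unadjusted p under 0.05, and 5 further endothelial markers did not pass the filter. Of 11 macrophage markers on the array, 8 did not pass the filter. All 8 were above background on all TH-MYCN ganglion arrays and on no passaged array, and 5 of them on no primary array. Of 450 genes (3.18% of those tested) whose difference changed between slides, 347 had the lower difference on slide 3, and 7 of the genes called higher and 48 of those called lower were among them.

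**Figure D3:**
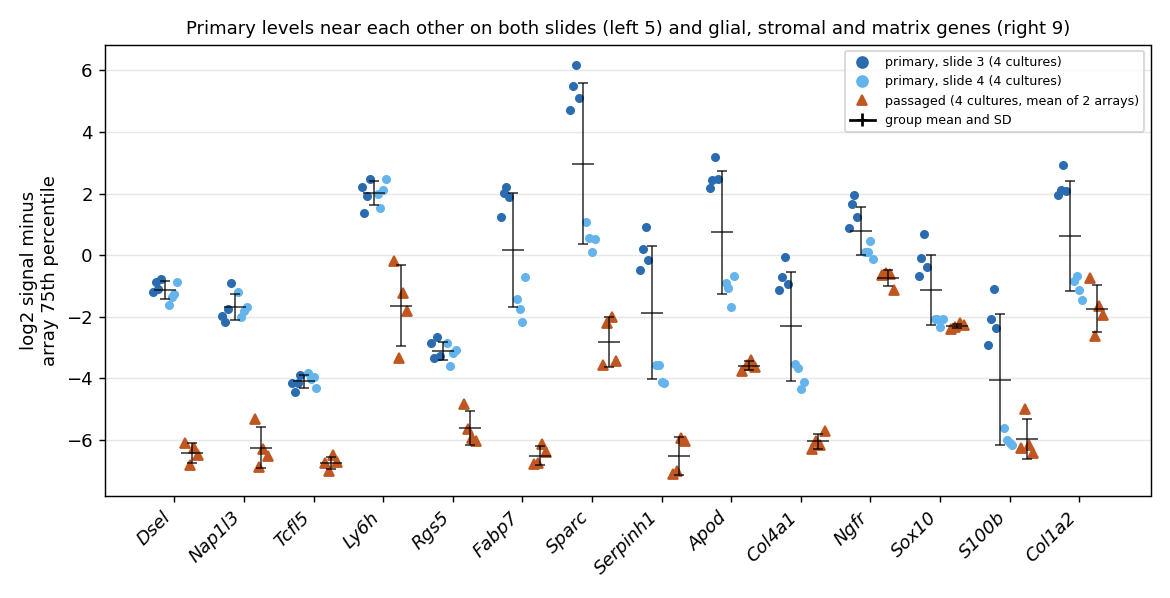
Levels (log2 signal minus the array's 75th percentile) of 14 genes in primary cultures of slide 3 and slide 4 (circles) and in passaged cultures (triangles), with group mean and SD. For Dsel, Nap1l3, Tcfl5, Ly6h and Rgs5 the primary cultures of both slides lie together, while from Fabp7 on they separate and the passaged cultures lie nearer to those of slide 4.

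**Figure D4:**
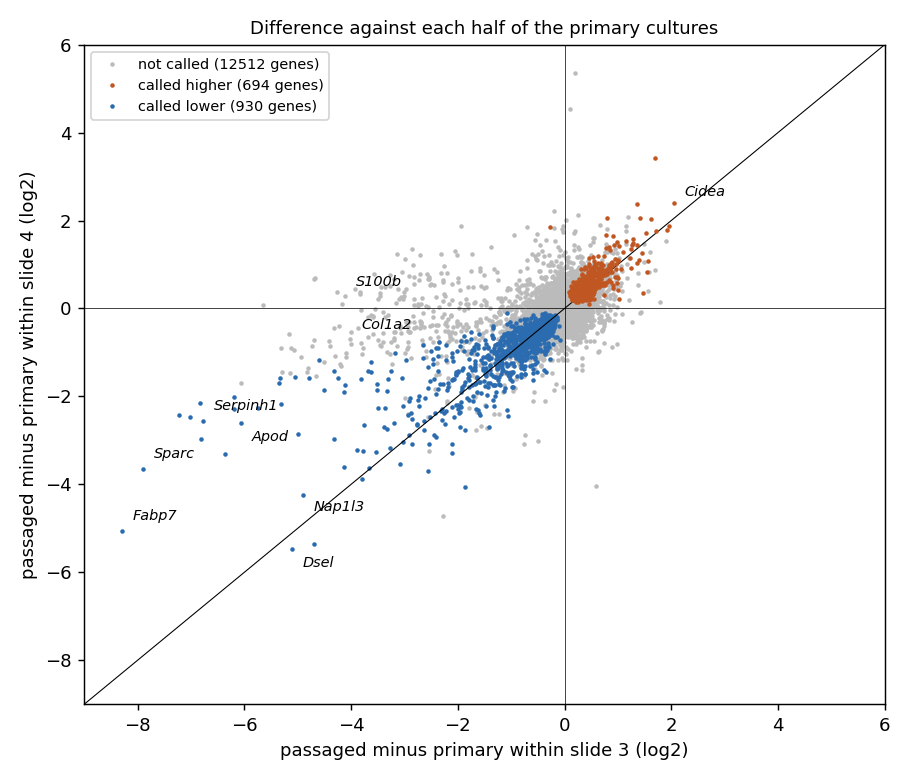
Passaged minus primary log2 difference within slide 3 (x axis) and within slide 4 (y axis) for each gene tested within both slides, coloured by the call over all 8 primary cultures; the line marks equal differences. A tail of genes such as Fabp7, Sparc, S100b and Col1a2 lies above it, lower against slide 3 than against slide 4. For genes not above background on passaged arrays, such as Dsel and Fabp7, the plotted differences have no exact size.

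The passaged cultures also differed among themselves. Judged against the spread between the 2 arrays of a culture, 5603 genes (39.6%) differed among the 4 cultures. The median gene had an SD of 0.08 between arrays of 1 culture, 0.15 between passaged cultures, and 0.12 and 0.16 between primary cultures within slides 3 and 4. Since that error covers only repeated arrays, the count says that cultures differ, not that passaging made them differ. By a gap of 2 on the log2 scale to each of the other 3 cultures, 24 genes were low in culture 2 alone and above background on all arrays of the other cultures, against 18 in culture 1, 12 in culture 3 and 3 in culture 4. In the other direction 40 genes stood out in culture 3, 25 in culture 2, 12 in culture 1 and 0 in culture 4.

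The Cdkn2a locus divided the cultures. Cdkn2a, which encodes the cell cycle inhibitor p16Ink4a and the p53 activator p19Arf, ran from 1.34 to 2.29 with a median of 2.16 in primary cultures. It was -2.51 and -3.09 in passaged cultures 1 and 2, and 4.23 and 2.75 in cultures 3 and 4, so each passaged culture lay outside the primary range, in opposite directions. The group difference was therefore not called (-1.62, SE 1.14, limma adjusted p = 0.373), while the difference among cultures was (adjusted p of the F-test 8.40e-06). Its neighbour Cdkn2b, the gene of p15Ink4b, was -7.01 and -6.94 in cultures 1 and 2, on no array above background, and -2.80 and -2.96 in cultures 3 and 4, within the primary range of -3.29 to -1.14. Its call held in 4 of 12 fits without 1 culture (limma adjusted p up to 0.125). Mtap, a neighbour of the locus, was 0.35, 0.21, 0.58 and 0.24, against 0.25 to 0.57 in primary cultures. Cdkn2a, Mtap and the genes of the next paragraphs, apart from Hoxd4, Hoxd8, Chl1, Eif2s3y, Ddx3y, Xist, Cdkn1a, Ccng1, Fas, Perp and Trp53inp1, were chosen after their values were seen.

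Targets of p53 were highest in passaged culture 3. All 16 tested targets had their highest passaged value in culture 3, against 30.7% of all genes, and 11 of 16 differed among cultures by the F-test, against 39.6%. Cdkn1a, the p21 inhibitor of cyclin-dependent kinases, was 2.37, 2.12, 4.13 and 2.98 in cultures 1 to 4 and 3.08 to 3.76 in primary cultures. Culture 3 lay above the primary range and the other cultures below it, so the group difference was not called (-0.55, SE 0.30, limma adjusted p = 0.248). Ccng1, a cyclin induced by p53, was 1.03, 0.58, 2.34 and 1.06 against 1.78 to 2.31 in primary cultures. Trp53inp1, a nuclear cofactor of p53, was -0.28, -0.92, 0.86 and -0.36 against 0.61 to 1.11 (-1.06, SE 0.25, limma adjusted p = 0.0190, up to 0.0657 without passaged culture 2 or 4). Phlda3 (3.38, 3.47, 4.80 and 3.83 against 3.86 to 4.32) and the death receptor Tnfrsf10b (-0.89, -0.91, 0.53 and -0.56 against -0.79 to 0.25) were also highest in culture 3, above the primary range. Trp53 itself was -0.18, -0.06, -0.14 and -0.15, within the primary range of -0.60 to 0.19. Mdm2, a feedback target, was 4.01, 4.02, 4.07 and 3.90 and did not differ among cultures by the F-test (adjusted p = 0.214). Over the group comparison 4 targets were lower (25%, beside 6.59% of all genes) and 0 higher in limma's test. These were Fas, Trp53inp1, Ccng1 and Perp. Ccng1 missed the threshold without passaged culture 1, 2 or 4 and without any primary culture but 2. Perp, a membrane protein, missed it without primary culture 4, without passaged culture 1, 2 or 4, and with normexp background correction. Fas was at least 1.11-fold lower and on no passaged array above background (limma adjusted p = 4.97e-05). Fas missed the threshold with normexp background correction. The arrays of culture 3 were the dimmest, with a 75th percentile of signal of 321 and 362 against 501 to 538 for cultures 1 and 2, and the part of this in these levels was not tested. Of the 16 targets 14 were above background on all passaged arrays.

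Levels of some homeobox genes and some single genes differed from culture to culture. Hox genes record the position of a cell along the body axis and lie in clusters. The 4 tested genes of the Hoxd cluster were near or below background in culture 2 alone. All 4 were lowest in culture 2, as were 23.7% of all genes. Hoxd8 was 1.75, -6.73, -0.45 and -1.29 in passaged cultures and -0.71 to 1.53 in primary cultures, and Hoxd4 was 2.13, -5.94, 0.38 and -0.09. Hoxd9 was 0.78, -6.91, -1.71 and -2.28, and Hoxd3 was 0.36, -6.04, -2.22 and -3.86, so that these were highest in culture 1. Mtx2, a mitochondrial import gene that flanks the cluster, was 4.30, 4.42, 3.80 and 4.41, against 4.03 to 4.56 in primary cultures. The 5 tested genes of the Hoxc cluster were lowest in culture 3. For example, Hoxc6 was 4.07, 3.64, 1.62 and 3.68, against primary values of 3.58 to 4.16. Hoxc9 was 3.83, 1.95, 0.50 and 3.75, against 2.48 to 3.11. All tested Hoxd and Hoxc genes differed among cultures by the F-test, against 39.6% of all genes. Of 3 tested Hoxa genes 0 did, and of 4 tested Hoxb genes 2 did. Grb10, an imprinted adaptor that restrains growth factor receptors, was -4.28 in culture 3 and 2.12 to 2.41 in the others. Chgb, a granin of secretory granules, was 5.33, 4.02, 8.57 and 2.92 against 5.96 to 6.69 in primary cultures, thus outside the primary range in every passaged culture. Chl1, a neural adhesion molecule, was -2.86, -2.21, 1.47 and -6.26, against -2.41 to 1.69. The other genes with the widest ranges among passaged cultures were Eif2s3y, Ddx3y and Xist, which followed the sex of the cultures.

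**Figure D5:**
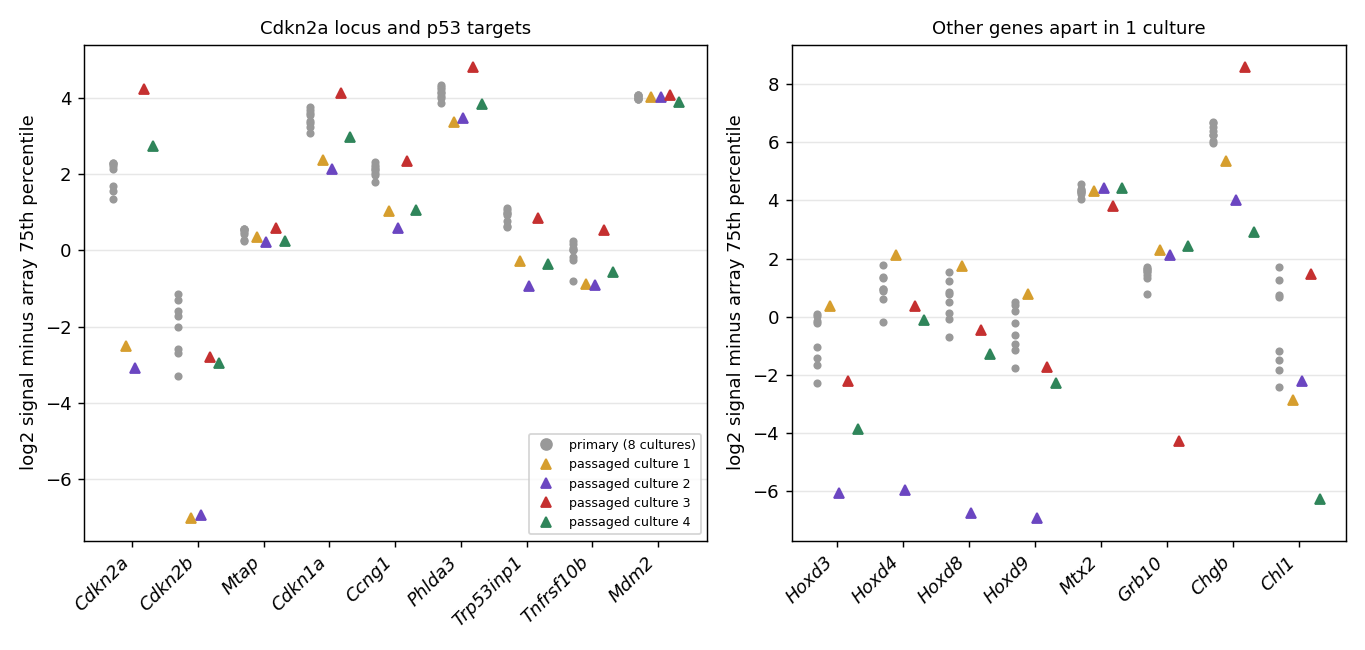
Levels (log2 signal minus the array's 75th percentile) of the Cdkn2a locus and p53 targets (left) and of other genes that stand apart in 1 culture (right), in 8 primary cultures (grey) and passaged cultures 1 to 4 (coloured triangles). Cdkn2a and Cdkn2b are low in cultures 1 and 2, most p53 targets are highest in culture 3, and the Hoxd genes are lowest in culture 2, while Mtap and Mdm2 show no such gap between cultures.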

How the data were processed

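Gene expression was read on one-colour Agilent mouse arrays with Feature Extraction 11.5.1.1, per the file headers. The deposited processed signal is an intensity that the software had background-subtracted and detrended within each array. The authors' deposited value table holds log2 values. Of these, 99.8% equalled the scaled scanner values less a constant per probe within 0.05, and the reference of that centring stays unknown. Its column medians lay between -0.08 and 0.07 on primary arrays and between 0.15 and 0.51 on passaged arrays.

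Each value was the log2 of the processed signal relative to that array's 75th percentile, without control spots and without outlier-flagged spots (109 to 209 per array). No spot was saturated. Probes were named by accession through a RefSeq table of GRCm38.p6 (27235 of 55681 probes, 20660 symbols). The array's header names build mm9, so no coordinates of probes are given. Both arrays of each passaged culture entered as their mean. The labels do not say whether they share an RNA extract. Tests were limited to probes detected well above background in 4 or more of the 12 cultures, where a passaged culture needed both arrays, and the brightest such probe stood for a gene. Groups were compared with limma 3.58.1 (lmFit and eBayes) in R 4.3.3, with Benjamini-Hochberg adjustment over all genes tested and a threshold of 0.05. A moderated F-test over the 8 passaged arrays tested differences among cultures. A term for group by slide, with the culture as a random block, tested whether a difference changed with the slide. Nothing in the labels says that cultures came from separate animals, so p-values measure the spread between these cultures. The number of arrays limits the precision. The fits were tested on simulated data with known differences.

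Genes were named by rule, apart from those that the text says were named or chosen after their values were seen. The rule took a panel of 10 neuroblastoma genes and the 15 largest rises and 15 largest falls called without any 1 culture, with a well-annotated symbol and detection on every array of the group with the higher level. It also took up to 4 called members per list with the largest differences, and the 6 genes with the widest range among passaged cultures. The members, the gene lists and this rule were chosen with earlier results of these data known. Alternatives changed background correction, scaling, filters, probe choice, arrays, slides and cultures. The sex of the cultures as a covariate was added after seeing the data. Some genes that the rule takes are not reported here.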

Additional observations from a re-analysis of the deposited data

Results flagged for a closer look

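Among 300 groups of values of the 150 named genes, 18 had 1 culture far from its group by Dixon's criterion. Chance flags about 1 in 20 where genes are not chosen by their values. Some of these genes were chosen for a wide range among passaged cultures or after their values were seen, so that rate does not apply. In passaged culture 1, Gpm6a was -2.15 (others -7.07 to -6.50) and Cspg4 was -6.83 (others -6.18 to -6.09). Cspg4 was above background on no passaged array. In culture 2, Dbh was 7.01 (others 6.56 to 6.63), Xist was 1.40 (others -7.04 to -6.37), Eif2s3y was -6.98 (others 2.57 to 2.87) and Ddx3y was -6.80 (others 0.937 to 1.39). In culture 3, Grb10 was -4.28 (others 2.12 to 2.41), Car10 was -3.89 (others -6.84 to -6.65) and Hmx3 was -3.19 (others -7.00 to -6.40). Also in culture 3, Perp was -2.90 (others -3.11 to -3.08) and Aebp2 was 2.13 (others 1.99 to 2.01). In culture 4, Ngfr was -1.12 (others -0.657 to -0.573) and Itga5 was -6.35 (others -5.97 to -5.90). Itga5 was above background on no passaged array either.

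Among primary cultures, Car10 was -0.831 in culture 2 (others -2.67 to -1.92) and Cdkn1c was 0.867 in culture 3 (others 1.35 to 1.63). Grb10 was 0.767 in culture 6 (others 1.33 to 1.71). In culture 8, Dicer1 was 2.49 (others 2.76 to 2.98) and Scd1 was 0.315 (others 1.06 to 1.59). By the interaction test in limma, the difference of 450 genes changed between the slides.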

How the results depend on the processing

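With 695 genes higher and 932 lower as reported, normexp background correction gave 462 and 515, and 20 higher and 82 lower by at least 2-fold. Under normexp 34 of 150 named genes missed the threshold, among them Serpinh1, Col4a1, Selenop, Kif21b, Pdgfrb, Cspg4, Igf2, Fas, Penk and Tcfl5. Without the filter on background, 4026 were higher, 616 of them by at least 2-fold, and 407 were lower by at least 2-fold. With all 4 groups in 1 fit 306 were higher. Within slide 3, 263 were higher, 12 by at least 2-fold, and 43 of 149 named genes missed the threshold. Within slide 4, 459 were higher and 503 lower, 214 of the latter by at least 2-fold. There 44 of 150 named genes missed the threshold. Quantile scaling gave 507 higher and 1055 lower, while 608 and 995 came from the authors' deposited table. Without 1 culture the counts ran from 247 to 718 higher and 522 to 988 lower. By at least 2-fold they ran from 19 to 71 higher and 239 to 377 lower. Differences among passaged cultures numbered 3235 to 5021, and changes between slides 381 to 563. The cause was not tested. With the replicate number as a block over cultures 1 to 4, 215 were higher and 747 lower, 14 and 452 by at least 2-fold, against 530, 1030, 16 and 537 without the block. Under the block 55 of 150 named genes missed the threshold. Same-numbered cultures correlated in their deviations at 0.258, 0.284, 0.177 and 0.0766, and the labels do not tie the numbers to an animal or batch, so the numbers were not taken as a pairing. The own number was best for 4 of 4 passaged and 3 of 4 primary cultures, a hint from the data and not from the design. Itga5, a called gene of the adhesion list (-1.31) on no passaged array above background, was 0.0061 under normexp. Grb10 ran from -1.42 to 0.81 without 1 culture, with 0.81 without passaged culture 3. Dim passaged arrays limit what can be said of genes near background.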

Other observations

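Other lists had few calls. Of 15 targets of the Wnt, Hedgehog, BMP and TGF-beta pathways 4 were higher (26.7%, beside 4.91% of all genes) and 0 lower (beside 6.59%) in limma's test. Their median difference was 0.19. Of 15 genes of nucleotide and polyamine synthesis 2 were higher (13.3%). Among the 4 higher targets, Id1 (0.82) and Tgfbi (1.08), a target and a matrix protein of TGF-beta family signals, were each called in 2 of 12 fits without 1 culture (limma adjusted p up to 0.131 and 0.126). Of 12 immediate early genes 2 were higher (16.7%) and 2 lower (16.7%), with Jun, a subunit of the AP-1 factor, at 0.60 and Fos, its partner, at -0.89. The call of Fos held in 4 of 12 fits without 1 culture (limma adjusted p up to 0.151; lost without primary culture 1, 2, 3, 4 or 7 or passaged culture 1, 2 or 4). Of 12 Notch genes 1 was higher (8.33%) and 1 lower (8.33%). The lower gene was the ligand Dll1, above background on 3 of 8 passaged arrays (limma adjusted p = 0.0112). Dll1 missed the threshold with normexp background correction. Of 21 hypoxia and glycolysis genes 1 was lower (4.76%), with a median of -0.11.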
